A study of Mus musculus with 6 samples.

Results

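Ezh2 and 9 other genes of the Polycomb repressive complexes were followed over the 6 arrays of the study. The genes are Ezh2, Ezh1, Eed, Suz12, Jarid2, Bmi1, Ring1, Rnf2, Phc1 and Cbx7, and the values are those of every array probe, control spots left out, that the array design names with one of these symbols. There were 16 such probes among 55681 on the array, which names 22989 genes. Each was read separately, because probes of a gene lie at different places of its transcripts.

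The cells were 1676 pre-B cells, a line grown out of bone marrow of SLP-65-/- LAT-/- mice, which lack 2 adaptor proteins of pre-B cell receptor signaling. Cells of all groups were kept in an excess of the growth factor IL-7 and selected for a retroviral vector, and RNA was hybridized to 1-colour mouse arrays. The control cells (2 arrays) carried an empty vector, and the miR-26a cells (2 arrays) a vector for overexpression of human miR-26a (hsa-miR-26a-2 in the labels). The sponge cells (2 arrays) carried a miR-26 sponge, an RNA with binding sites that sequesters miR-26 family members. The 2 arrays of a group came from 2 independent experiments with separately generated clones of this 1 line. The p-values therefore rest on the spread between such clones that is left after differences shared by an experiment are removed. No scrambled sponge was on the arrays.

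Polycomb group proteins keep genes silent by modifying histones. Polycomb repressive complex 2 (PRC2) is built around Ezh2 or its paralog Ezh1, which methylate lysine 27 of histone H3, and needs Eed and Suz12 for activity. Complexes of the PRC1 family carry the ubiquitin ligases Ring1 or Rnf2, which mark histone H2A, together with a Pcgf protein such as Bmi1 and, in the canonical form, a Phc and a Cbx protein. Ezh2 is high in dividing cells and, in B cell precursors, is required for the rearrangement of distal heavy chain V genes, and it has been described as a miR-26a target in other cells.

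The mature miR-26 sequences from RefSeq (GRCm38.p6) are shown because the 7 bases that pair with target RNAs are the same in both family members. In each, the seed, bases 2 to 8, is in capitals.
mmu-miR-26a-5p: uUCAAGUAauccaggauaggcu
mmu-miR-26b-5p: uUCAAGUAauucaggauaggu
The first is encoded on the plus strand at chr9:119031811-119031832 (Mir26a-1) and at chr10:126995543-126995564 (Mir26a-2), the second at chr1:74394324-74394344 (Mir26b). Over the 21 bases they share in length, they differ at 2 positions, 11 and 21, counted from the 5′ end. A target site holds TACTTGA, the complement of the seed, or ACTTGAA, the complement of bases 1 to 7. On the strand of the probe, neither word was in any of the 16 Polycomb probes (0 of 16), against 0.431% and 0.700% of all 55681 probes, which are 60 bases long. The 3′-UTRs of the genes were not analysed here.

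Values are processed signals of the scanner files, quantile-normalized here and given as intensities or on the log2 scale. A probe was tested when 1 or more arrays showed it well above background and its signal exceeded 50 on at least 4 arrays. Of the 16 probes, 11 passed, covering 9 of the 10 genes, and 20168 probes passed in all. Changes are differences of log2 intensity from limma, with the 6 arrays in 1 fit that blocks on the experiment, and a probe was called at an adjusted p under 0.05 after Benjamini-Hochberg adjustment over the 20168 probes.

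In miR-26a cells, Ezh2 and Jarid2 fell and 1 of 2 tested Ezh1 probes rose. These are 2 of 11 probes called lower, where 5.14% of all tested probes were lower, and 1 of 11 called higher, where 4.5% were. The arrays of the miR-26a and control groups did not overlap for any of the 11 probes (11 of 11), compared with 49.3% of all tested probes. In sponge cells none of the 11 was called (0 lower and 0 higher in limma, with 1 lower and 1 higher at an unadjusted p under 0.05). Among all probes the share called against control was 0% lower and 0.00992% higher for the sponge (1759 lower and 1488 higher at an unadjusted p under 0.05 in limma), so few sponge calls were made on the whole array. Between miR-26a and sponge cells, 3 of 11 were called lower and 3 of 11 higher, against 8.49% and 8.28% of all tested probes. The median change of the 11 probes was -0.14 for miR-26a against control, 0.01 for sponge against control and -0.15 for miR-26a against sponge, beside 0.01, 0.00 and 0.02 over all tested probes. The comparisons share arrays, so they are not independent of each other.

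**Figure D1:**
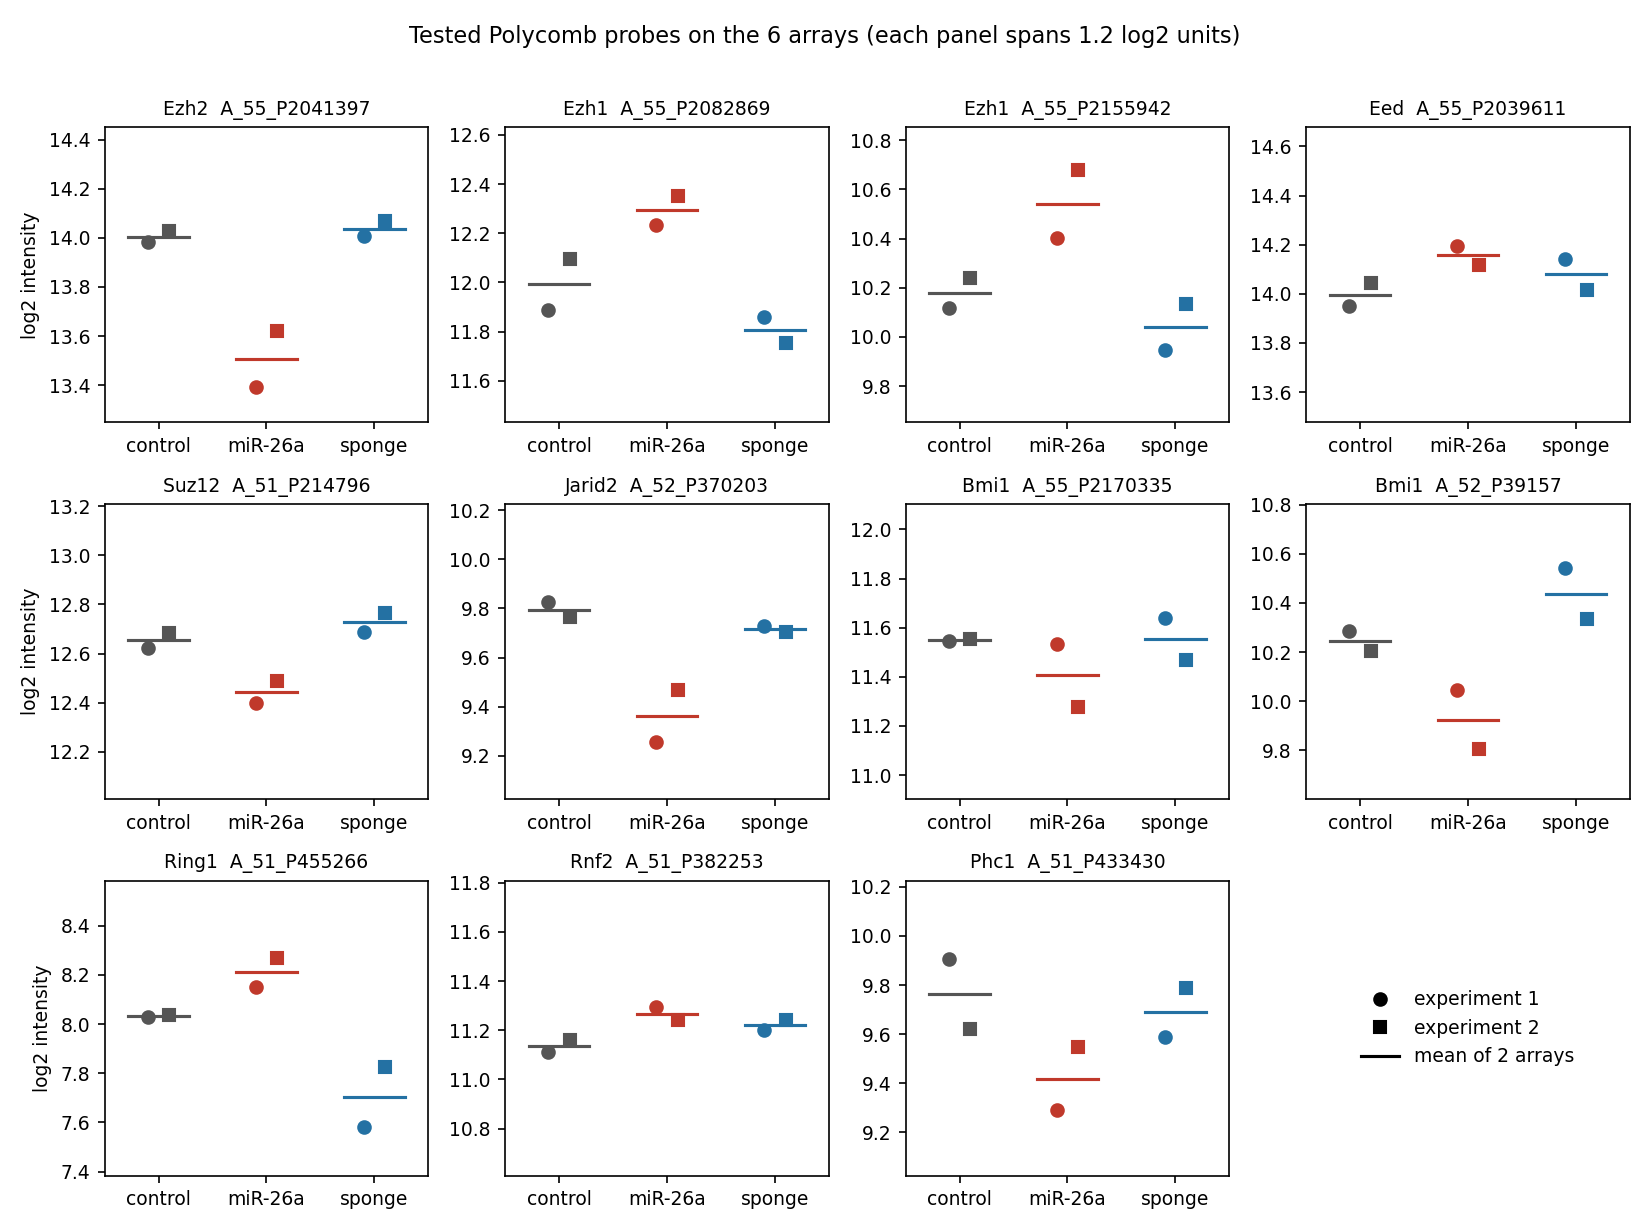
Log2 intensity (vertical axis) of the 11 tested Polycomb probes on the control, miR-26a and sponge arrays, with circles for experiment 1, squares for experiment 2 and a bar at the mean of the 2 arrays. Each panel spans 1.2 log2 units, and Ezh2 lies at 13.51 in miR-26a cells against 14.00 in control and 14.04 in sponge cells.

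Ezh2, the main H3K27 methyltransferase of dividing cells, has a single probe on the array (A_55_P2041397, mm9 chr6:47480307-47480366, minus strand). Its intensities were 16184 and 16694 on the control arrays, 10766 and 12583 on the miR-26a arrays, and 16446 and 17169 on the sponge arrays. The miR-26a arrays were the lowest of the 6, and control and sponge arrays overlapped. In log2 terms the level was 14.00 ± 0.03 (SD, n = 2) in control, 13.51 ± 0.16 (SD, n = 2) in miR-26a and 14.04 ± 0.04 (SD, n = 2) in sponge cells. The change from control to miR-26a was -0.50 (SE 0.08, adjusted p = 0.0207 in limma), a level 29.2% lower, with -0.59 in experiment 1 and -0.41 in experiment 2. Against sponge cells the change was -0.53 (SE 0.08, adjusted p = 0.0134 in limma). The sponge differed from control by 0.03 (95% interval -0.16 to 0.23, adjusted p = 0.861 in limma), an interval that excludes a rise as large as the fall in miR-26a cells.

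The call for Ezh2 against control rests on 2 arrays in each group. Leaving out 1 array at a time kept the change between -0.58 and -0.41, but the call was lost in most of these fits. Each of them leaves 1 array in a group and fewer residual degrees of freedom, so nothing further is drawn from the lost calls. The change was smallest in size without miR-26a replicate 1 (-0.41) and largest without miR-26a replicate 2 (-0.58). Without the experiment block the Ezh2 change of -0.50 had an adjusted p of 0.0836 in limma, in a fit that called fewer probes over the whole array.

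Ezh1, the paralog that forms PRC2 with lower methylation activity and is typical of resting cells, has 4 probes on the minus strand, of which 2 were tested. Probe A_55_P2155942 (mm9 chr11:101052680-101052739) read 1112 and 1208 in control, 1353 and 1638 in miR-26a, and 986 and 1123 in sponge cells. The miR-26a arrays were the highest, and the sponge and control arrays overlapped. Its change was 0.36 (SE 0.07, adjusted p = 0.0402 in limma) from control to miR-26a, with 0.28 and 0.44 in the 2 experiments, and 0.50 (SE 0.07, adjusted p = 0.0133) between miR-26a and sponge.

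The other tested Ezh1 probe, A_55_P2082869 (mm9 chr11:101052430-101052489), read 3790 and 4378 in control, 4814 and 5232 in miR-26a, and 3715 and 3455 in sponge cells. Its groups did not overlap, with miR-26a highest and sponge lowest. The change from control to miR-26a, 0.30 (SE 0.09), was not called (adjusted p = 0.111 in limma), and that between miR-26a and sponge, 0.49 (SE 0.09), was called (adjusted p = 0.0265). The sponge minus control differences of the 2 probes were -0.14 (adjusted p = 0.402) and -0.19 (adjusted p = 0.393). The Ezh1 differences were thus opposite in sign to those of Ezh2 in both comparisons of miR-26a cells.

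Of the dim Ezh1 probes, A_55_P2017086 (mm9 chr11:101054534-101054593) read 45.9 and 45.0 in control, 59.3 and 61.9 in miR-26a, and 37.1 and 35.8 in sponge cells. Only the 2 miR-26a arrays exceeded the limit of 50, so it was not tested here. Probe A_55_P2017090 stayed under 50 on all 6 arrays, with a lowest intensity of 16.1.

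Eed, which binds trimethylated H3K27 and stimulates the enzyme, had intensities of 15818 and 16873 in control, 18776 and 17760 in miR-26a, and 18097 and 16569 in sponge cells. The miR-26a arrays were above both control arrays, but the difference of 0.16 (95% interval -0.04 to 0.36) was not called (adjusted p = 0.277 in limma). The sponge minus control difference was 0.08 (95% interval -0.12 to 0.29, adjusted p = 0.635).

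Suz12, the scaffold subunit of PRC2, read 6314 and 6576 in control, 5398 and 5742 in miR-26a, and 6605 and 6966 in sponge cells. The 3 groups did not overlap, with miR-26a lowest and sponge highest. The change was -0.21 (SE 0.07, adjusted p = 0.108 in limma) against control, which was not called, and -0.28 (SE 0.07, adjusted p = 0.0403) against sponge, which was called but not with any 1 array left out. The 2 experiments gave nearly the same change from control to miR-26a, -0.23 and -0.20.

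Jarid2, an accessory subunit that helps to bring PRC2 to chromatin and is itself without demethylase activity, was the other PRC2 gene called lower. It read 907 and 870 in control, 612 and 708 in miR-26a, and 847 and 835 in sponge cells, so that the miR-26a arrays were the lowest. The change was -0.43 (SE 0.09, adjusted p = 0.0434 in limma), a level 25.9% lower, with -0.57 in experiment 1 and -0.30 in experiment 2. Against sponge cells it was -0.35 (SE 0.09), with an adjusted p of 0.0521.

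The calls of Jarid2 and of Ezh1 probe A_55_P2155942 against control rest on the same few arrays. With 1 array left out, the Jarid2 change was between -0.56 (without miR-26a replicate 2) and -0.31 (without miR-26a replicate 1). The Ezh1 change was then between 0.30 and 0.42. The Jarid2 call was lost in most of these fits and the Ezh1 call in all, with the same limit on residual degrees of freedom. The scaling of the arrays to their 75th percentile in place of quantile normalization moved the Jarid2 change to -0.40 (adjusted p = 0.0519) and the Ezh1 change to 0.41 (adjusted p = 0.0323).

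**Figure D2:**
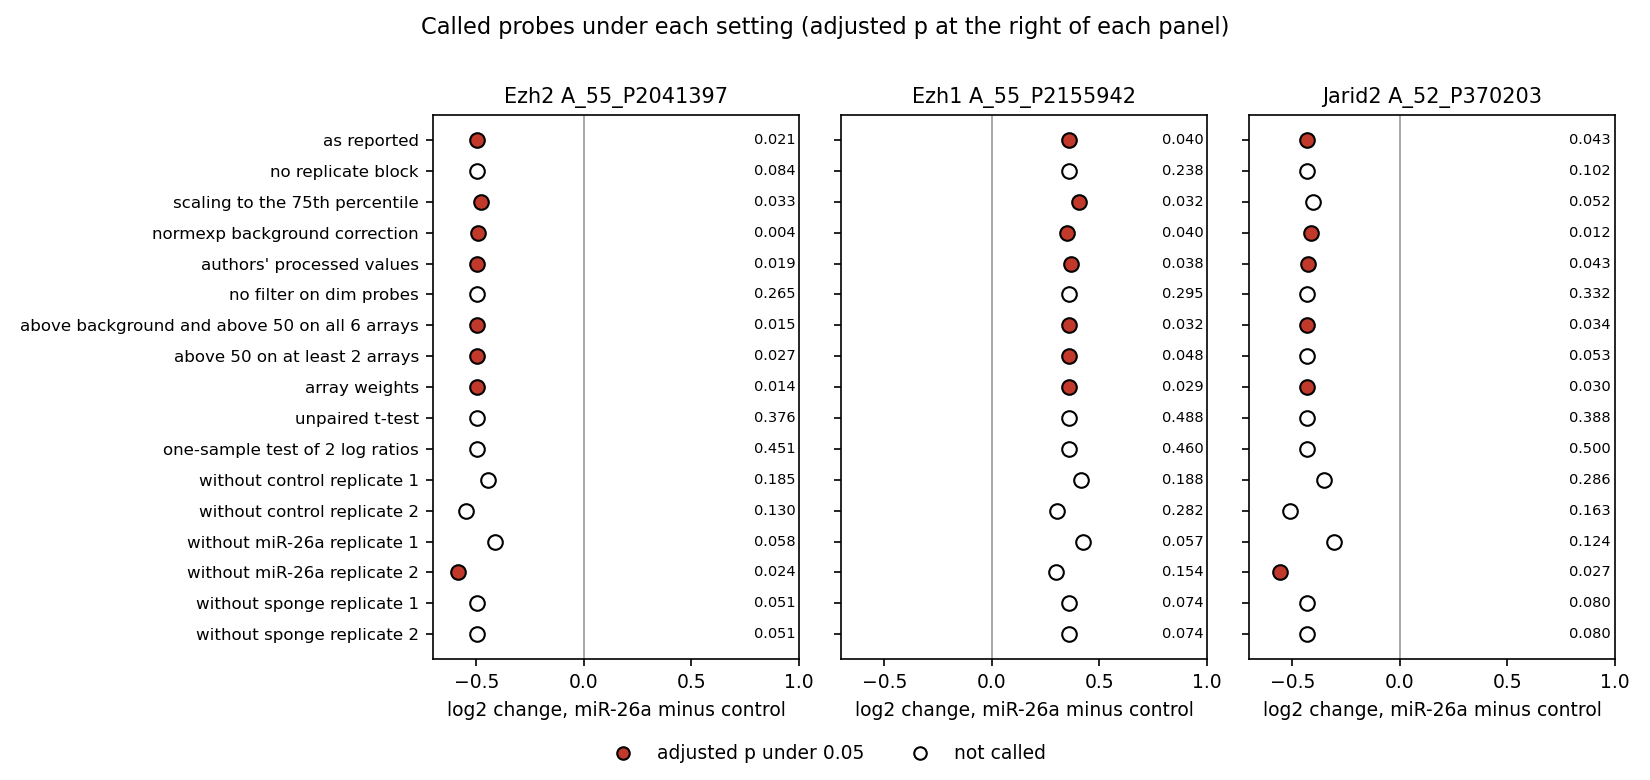
Log2 change from control to miR-26a (horizontal axis) of the 3 called probes under each setting (vertical axis), with filled circles for an adjusted p under 0.05 and the adjusted p at the right of each panel. The changes keep their sign throughout, while most settings that leave out 1 array give open circles.

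Of the PRC1 genes, none was called against control, and 1 of the 2 Bmi1 probes and Ring1 were called between miR-26a and sponge cells. Bmi1, the Pcgf protein that stimulates the ubiquitin ligase and is known for repressing Cdkn2a, has 2 probes on the plus strand of mm9 chromosome 2. Probe A_52_P39157 (chr2:18607987-18608046) read 1250 and 1179 in control, 1056 and 894 in miR-26a, and 1489 and 1290 in sponge cells. The groups did not overlap, with miR-26a lowest and sponge highest. The miR-26a change was -0.32 (SE 0.07) against control, which was not called (adjusted p = 0.0544 in limma). With no array left out, it was called in 3 of 10 other settings. These were normexp background correction (0.0374), array weights (0.0410) and a filter on all 6 arrays (0.0453). Among the settings without a call were scaling to the 75th percentile (adjusted p = 0.0811 in limma) and the authors' processed values (0.0552). Against sponge the change was -0.51 (SE 0.07, adjusted p = 0.0129 in limma), which was called. The sponge minus control difference was 0.19 (SE 0.07, adjusted p = 0.300).

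The second Bmi1 probe, A_55_P2170335 (chr2:18607531-18607590), read 2988 and 3003 in control, 2966 and 2482 in miR-26a, and 3187 and 2838 in sponge cells. Its change was -0.14 (SE 0.09, adjusted p = 0.356 in limma) against control, where experiment 1 gave -0.01 and experiment 2 gave -0.27, and -0.15 (SE 0.09, adjusted p = 0.281) against sponge. The 2 Bmi1 probes therefore had the same sign in miR-26a cells, and neither was called against control. Against sponge only A_52_P39157 was called, and the arrays of A_55_P2170335 overlapped between these groups.

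Ring1, a ubiquitin ligase of PRC1, read 261 and 263 in control, 285 and 309 in miR-26a, and 192 and 227 in sponge cells. The sponge arrays were the lowest and the miR-26a arrays the highest. Its change was 0.51 (SE 0.08, adjusted p = 0.0169 in limma) between miR-26a and sponge. Against control it was 0.18 (SE 0.08, adjusted p = 0.235) for miR-26a and -0.33 (SE 0.08) for the sponge. The sponge difference of Ring1 was the largest in size among the 11 probes (unadjusted p = 0.00825 in limma) and did not pass the adjustment (adjusted p = 0.225).

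Rnf2, the other ubiquitin ligase, read 2215 and 2287 in control, 2514 and 2419 in miR-26a, and 2355 and 2419 in sponge cells. All 4 miR-26a and sponge arrays were above the 2 control arrays, by 0.13 (95% interval -0.04 to 0.30, adjusted p = 0.294 in limma) for miR-26a and 0.08 (95% interval -0.09 to 0.26, adjusted p = 0.573) for the sponge, and neither was called. Phc1, which links PRC1 complexes through its SAM domain, read 958 and 788 in control, 627 and 748 in miR-26a, and 771 and 885 in sponge cells. Its replicates were far apart, and the change of -0.34 (SE 0.14, adjusted p = 0.191 in limma) came to -0.61 in experiment 1 and -0.08 in experiment 2. The other Phc1 probe, A_55_P2186405, read 7.7 to 17.3 and was not well above background on 1 array.

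Cbx7, the chromodomain subunit through which PRC1 reads methylated H3K27, was the 1 member gene with no tested probe. Probe A_55_P1980408 was well above background on all 6 arrays but read between 28.0 and 44.4, under the limit of 50, and probe A_55_P1980401 was not well above background on any. In the fit with no filter, the former differed by -0.22 between miR-26a and control (adjusted p = 0.707 in limma) and by -0.06 between sponge and control (adjusted p = 0.967), and neither was called.

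**Figure D3:**
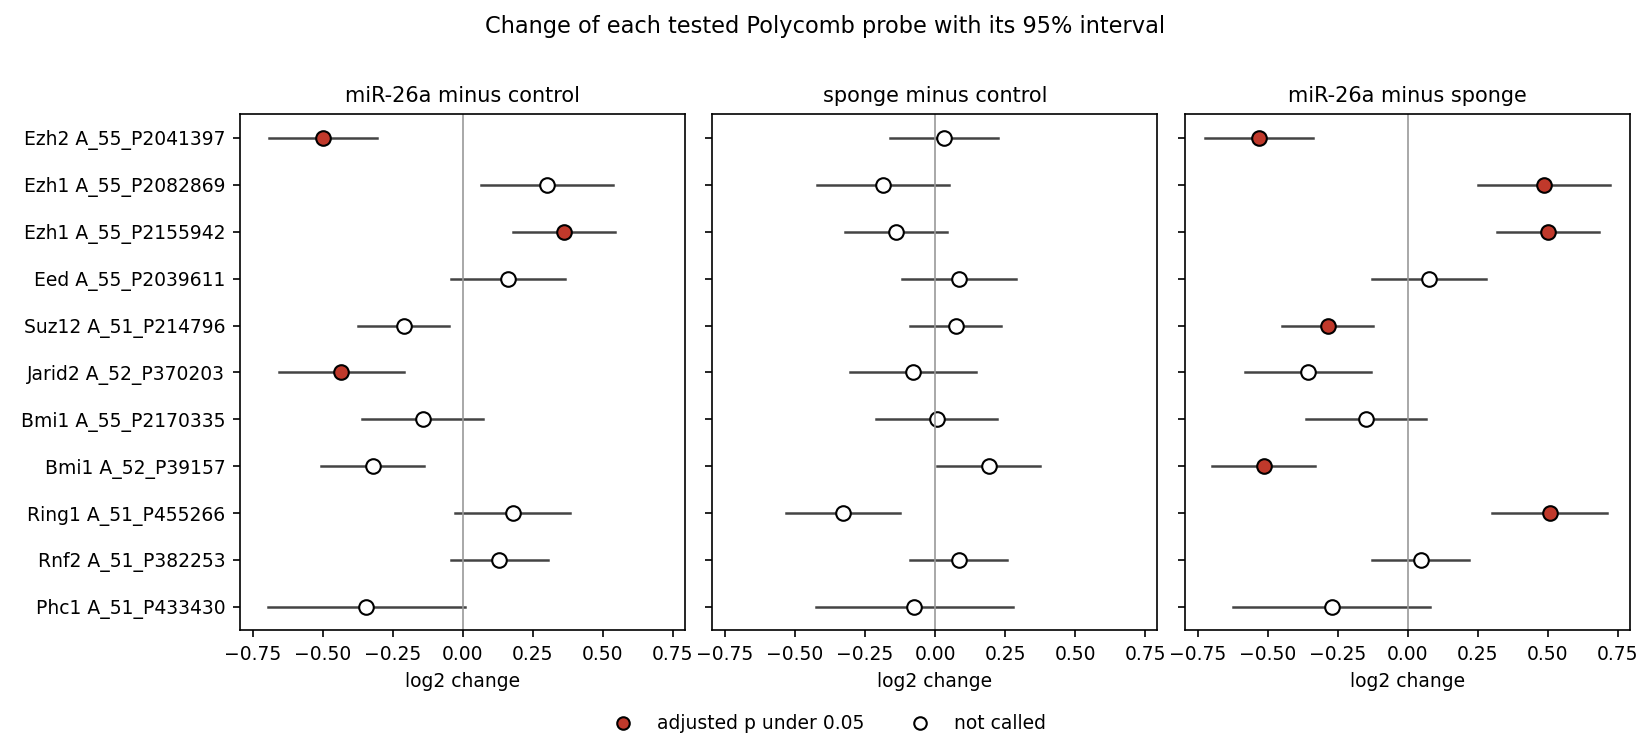
Log2 change (horizontal axis) with its 95% interval for each of the 11 tested Polycomb probes (vertical axis), from left to right for miR-26a minus control, sponge minus control and miR-26a minus sponge. Filled circles passed an adjusted p under 0.05, which 3 probes did on the left, 0 in the middle and 6 on the right.

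The difference between miR-26a and sponge cells was the comparison with the most calls. Of the 6 probes called there, Ezh2, Suz12 and Bmi1 probe A_52_P39157 were lower in miR-26a cells, and both tested Ezh1 probes and Ring1 were higher. The arrays of the groups did not overlap for 8 of 11 probes, against 50.9% of all tested probes, and for sponge against control the count was 6 of 11, against 37.7%. All 6 calls were lost when either sponge replicate 1 or sponge replicate 2 was left out. The Suz12 call was lost without any 1 of the 6 arrays, and that of Ezh1 probe A_55_P2082869 also without miR-26a replicate 2. Such fits have fewer residual degrees of freedom, and calls were lost over the whole array as well. The cause of the losses was not tested.

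Other genes of the Polycomb system were taken from 4 lists of PRC2 partners, PRC1 partners, H2A deubiquitinase enzymes and subunits, and H3K27 demethylases with MLL methyltransferases. In all, 36 of these genes have a probe, and 49 of 62 probes, from 34 genes, were tested. In miR-26a cells 1 of the 49 was called lower and 3 higher, with a median change of 0.06, beside 5.14% lower and 4.5% higher over all tested probes. In sponge cells 0 were called in limma, with 4 lower and 3 higher at an unadjusted p under 0.05 (median -0.01), and between miR-26a and sponge 2 were called lower and 6 higher (median 0.04), beside 8.49% and 8.28% over all tested probes.

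Among the 10 tested probes of PRC2 partners, 1 was called lower and 1 higher in miR-26a cells, beside 5.14% and 4.5% of all tested probes. Rbbp4 encodes a histone-binding subunit of PRC2 and of other chromatin complexes. Its probe A_52_P424767 fell by 0.49 (SE 0.07, adjusted p = 0.0151 in limma), from 482 and 443 in control to 335 and 322 in miR-26a cells, whereas its far brighter probe A_51_P307325 read 43831 and 46962 in control and 44812 and 45709 in miR-26a cells (adjusted p = 0.985). The probes of Rbbp4 therefore disagree. Phf19, a Polycomb-like protein that guides PRC2 to chromatin, rose by 0.35 (SE 0.08, adjusted p = 0.0490), from 2349 and 2549 in control to 2991 and 3233 in miR-26a cells, and read 1939 and 2345 in sponge cells.

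Of the 26 tested probes of PRC1 partners, 1 was lower (Bcor) and 3 higher in miR-26a cells at an unadjusted p under 0.05 in limma. After adjustment, 0 were called lower and 1 higher, beside 5.14% and 4.5% of all tested probes. That probe, A_51_P391764, belongs to Cbx6, a chromodomain protein related to Cbx7, and it rose by 0.36 (SE 0.07, adjusted p = 0.0342 in limma), from 4071 and 4160 to 5069 and 5512. Between miR-26a and sponge cells, 0 of the 26 were called lower and 4 higher, beside 8.49% and 8.28% of all tested probes. The 3 tested Cbx6 probes were all called higher in miR-26a than in sponge cells, by 0.35, 0.39 and 0.57. L3mbtl2, a subunit of a variant PRC1, was higher by 0.29 (adjusted p = 0.0423) in that comparison and was not called in the others.

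Of the H2A deubiquitinase list, 0 of 7 tested probes were called in miR-26a against control cells in limma, nor did any reach an unadjusted p under 0.05 (0 of 7). The shares over all tested probes were 5.14% called lower and 4.5% higher. Between miR-26a and sponge cells, 1 of the 7 was called lower and 0 higher, beside 8.49% and 8.28% of all tested probes. Mysm1, an H2A deubiquitinase needed for B cell development, was lower in miR-26a than in sponge cells (a change of -0.36, SE 0.07, adjusted p = 0.0288 in limma), with 504 and 523 in control, 473 and 518 in miR-26a, and 643 and 631 in sponge cells. Here the sponge arrays stood apart and the control and miR-26a arrays overlapped. Of the 6 tested probes of the last list, 1 was called higher in miR-26a than in control cells, beside 4.5% of all tested probes. It belongs to Kdm6b, a demethylase of H3K27. It rose by 0.34 (SE 0.07, adjusted p = 0.0447), from 707 and 670 in control to 867 and 874 in miR-26a cells, and read 669 and 698 in sponge cells.

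**Figure D4:**
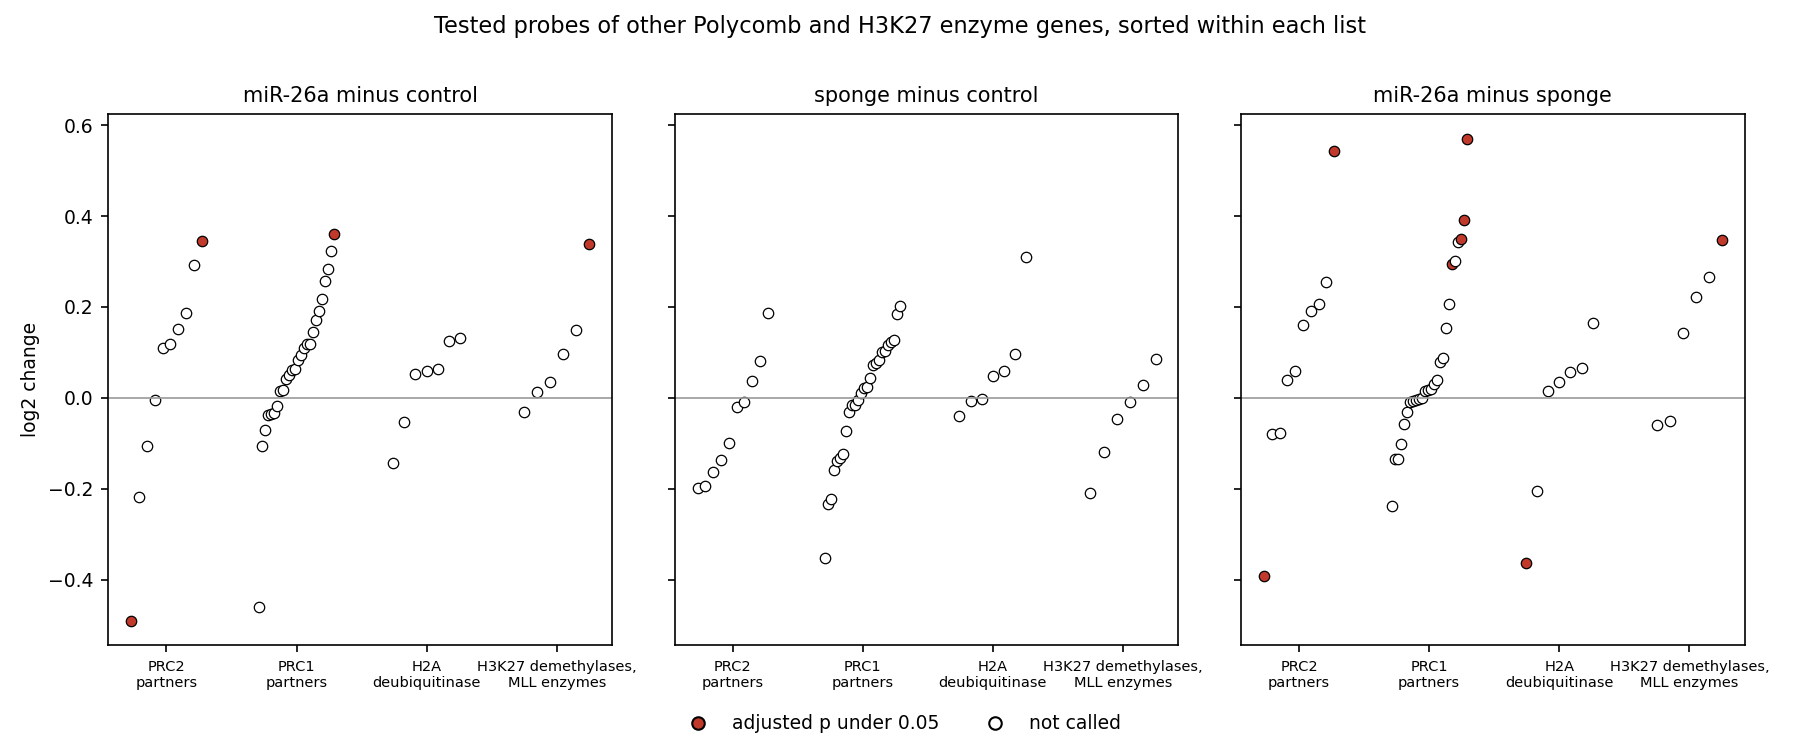
Log2 change (vertical axis) of the 49 tested probes of other Polycomb and H3K27 enzyme genes, sorted within each list, for miR-26a minus control, sponge minus control and miR-26a minus sponge. Filled circles passed an adjusted p under 0.05, which 4 probes did on the left, 0 in the middle and 8 on the right.

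Genes that Polycomb complexes classically silence were mostly not measurable. Of 18 probes of 13 genes, 1 was tested. The 14 probes of 11 Hoxa genes read 2.31 to 34.6, with 10 of them above background on 0 arrays. Of the 2 Cdkn2b probes, which read 2.75 to 25.2, neither was tested. Cdkn2a, which encodes p16Ink4a and p19Arf, read 1165 and 719 in control, 921 and 614 in miR-26a, and 1070 and 810 in sponge cells on probe A_55_P2008437. The groups overlapped, with replicate 1 above replicate 2 in each. The blocked change was -0.28 (SE 0.09, adjusted p = 0.116 in limma) in miR-26a and 0.02 (SE 0.09, adjusted p = 0.906) in sponge cells. Between miR-26a and sponge cells it was -0.31. Both miR-26a differences were falls with an unadjusted p under 0.05 in limma, and none of the 3 was called. The other Cdkn2a probe, A_55_P2008438, was well above background on all 6 arrays and not tested. It read 73.1 and 26.7 in control, 54.4 and 33.6 in miR-26a, and 69.2 and 44.5 in sponge cells.

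The profile of Ezh2 over the 6 arrays was shared by many genes. Of the other 20167 tested probes, 411 had a Pearson correlation of at least 0.95 with it, as a description over 6 arrays that share groups and experiments. The 5 named genes most like it were Efhd1 (0.998), Trp53inp1 (0.997), Tesk2 (0.996), Rag1 (0.996) and Hist1h2bc (0.994). Rag1 encodes a subunit of the V(D)J recombinase and Trp53inp1 a p53-induced stress protein. Their log2 levels in control and miR-26a cells were 9.55 and 7.08 for Rag1, and 12.62 and 11.01 for Trp53inp1. Among the Polycomb probes, Suz12 (0.97) and Jarid2 (0.96) were most like Ezh2 and the brighter Ezh1 probe, A_55_P2082869, least (-0.80).

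Promoters were searched for the E2F words TTTCCCGC, TTTCGCGC, TTTGCCGC and TTTGGCGC on both strands, from 250 bases before to 50 after each gene's start in RefSeq (GRCm38.p6), because E2F factors are known to drive Ezh2 in dividing cells. A word was found in 2 of the 10 Polycomb genes (20%), Ezh2 and Suz12, and in 704 of 27025 genes in all (2.60%). Jarid2, with a profile also like that of Ezh2 (0.96), and Eed (-0.71) held no such word, and a link between words and profiles was not tested. The stretches of the 2 genes with a word are shown. The word is in capitals after the 20 bases before it.
Ezh2: atggcgattgggttgctgcgTTTGGCGC
Suz12: aggccgctccgacccctcatTTTCCCGC
The Ezh2 stretch lies at chr6:47595020-47595047 on the minus strand, its word beginning at base 4 of the transcript, and that of Suz12 at chr11:79992867-79992894 on the plus strand, its word beginning at base -219, before the start. These are matches of letters, and binding was not measured.

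The cells were checked against marker genes. Of 9 pre-B cell markers, 8 were well above background on all 6 arrays, among them Cd79a, Igll1 and Vpreb1, and Blk was on 2. Over all tested probes, 5.14% were called lower and 4.5% higher in miR-26a than in control cells, to be set beside the marker counts that follow. Of 10 tested pre-B probes, 1 was called lower in miR-26a than in control cells (Rag1, -2.47, adjusted p = 0.00554 in limma) and 0 higher. At an unadjusted p under 0.05 in limma, 4 were lower and 0 higher, beside 2617 lower and 2881 higher of all 20168 tested probes. Among these 4, both Pax5 probes changed by -0.27 and -0.23 and were not called. The list summed to 599900 to 637555 in control, 574874 to 620297 in miR-26a and 588781 to 638246 in sponge cells. Of 8 myeloid markers, 4 (Itgam, Cd68, Elane and Csf3r) were above background on all 6 arrays, and the summed myeloid intensity, most of it Csf3r, was 55731 to 67630 in control, 58284 to 64273 in miR-26a and 54454 to 72713 in sponge cells. Of 5 tested myeloid probes, 1 was called higher in miR-26a than in control cells (Cd68, 0.33, adjusted p = 0.0420 in limma) and 1 lower (Itgam probe A_55_P1977929, -0.82, adjusted p = 0.00720), while the other Itgam probe differed by 0.06 and was not called. Of 6 T cell markers 3 (Cd3e, Cd4 and Lck) were above background throughout, and their list summed to 2487 to 2629 in control, 2116 to 2304 in miR-26a and 2184 to 2441 in sponge cells. The sum was lower in miR-26a than in control mostly through Lck (1221 and 1103 in control, 821 and 888 in miR-26a cells). Cd3e and Cd4 overlapped between these groups, and 0 of the 3 tested T cell probes were called. Of 5 erythroid markers 1 (Klf1) was above background throughout, 3 were on 0 arrays, and 0 of the probes were tested. The list summed to 43.6 to 50.9 in control, 54.4 to 60.4 in miR-26a and 47.3 to 50.1 in sponge cells, sums close to background. Klf1 overlapped between the groups, with 20.6 and 27.3 in control and 25.4 and 26.9 in miR-26a cells. The part of these markers in the Polycomb results was not tested. In such bulk RNA, fewer cells of a type and less RNA per cell cannot be told apart. Each array had 28823 to 29800 of 59305 spots well above background and 0 saturated spots, and all 6 arrays were on the same slide. With 2 arrays in a group, precision is limited for every value given.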

How the data were processed

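RNA of 6 cultures was measured on Agilent mouse arrays with 1 colour. The authors deposited, per the file headers, Feature Extraction output with the background-subtracted intensity of every spot (version 10.7.1.1 in the submitters' processing notes), and a table of processed intensity values, on a linear scale with 6 columns of nearly the same median (12.37 to 12.38), whose log2 correlates with the scanner values at 0.999865 or above. The array design gave the gene names and the mm9 positions.

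Control spots and outlier spots were left out, but a probe with no unflagged spot (0 to 7 on an array) was kept. Processed signals were quantile-normalized, spots of 1 probe were averaged as log2 values, and probes with a signal above 50 on at least 4 arrays, and well above background on 1 or more, were fitted with limma (3.58.1, R 4.3.3) over 6 arrays, with the replicate number as a block for the experiment. The methods normalize to the control of each experiment, and word the number of arrays in the filter unclearly. The pairing was checked: deviations of same-numbered arrays correlated at 0.38 (control and miR-26a), 0.59 (control and sponge) and 0.45 (miR-26a and sponge). Replicates correlated at 0.996 to 0.997. Titles of the control samples quote other sample records, so these arrays may also belong to another series. Groups and replicate numbers are those of the labels.

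The member genes, the lists and the rule for naming genes (all member probes, called probes of the lists, Cdkn2a and Cdkn2b, and the 5 genes most correlated with Ezh2) were chosen with earlier results of these data known. Of the marker genes, 1 is not reported here. On simulated data for miR-26a against control (20168 probes, 200 changed), the fit made 87 calls, 2 of them false, and recovered 80% of changes of 1 and 5% of changes of 0.5 on the log2 scale. The real comparison had 1036 lower and 908 higher calls, so the adjustment was stricter in the simulation. The share recovered in the real data was therefore not measured, and changes of the size seen here may be missed. An unpaired t-test, a test of the 2 log ratios and other alternatives were run. Tables were made with Python 3.11.15, numpy 2.4.6 and pandas 2.3.3, and plots with matplotlib 3.10.9.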

Additional observations from a re-analysis of the deposited data

How the results depend on the processing

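The counts of called Polycomb probes depended on the fit. Without the replicate block, the miR-26a against control count fell from 2 to 0 lower and from 1 to 0 higher, and the miR-26a against sponge count from 3 to 1 lower and from 3 to 0 higher. Over all 20168 tested probes, calls against control fell too, from 1036 lower and 908 higher to 238 and 73. Those against sponge fell from 1713 lower and 1669 higher to 632 and 365. With no filter on dim probes all of these counts were 0, and 0 of 55681 probes were called in any comparison in limma (3168 lower and 3349 higher at an unadjusted p under 0.05 for miR-26a against control), a fit that pools the spread with probes at background. Against control, 1 probe was lower after scaling to the 75th percentile (Ezh2), and with the limit of 50 required on at least 2 arrays 1 was lower and 2 higher, the second being the dim Ezh1 probe A_55_P2017086, which passes through its miR-26a arrays. The unpaired t-test and the test of the 2 within-experiment log ratios gave 0 lower and 0 higher in every comparison after Benjamini-Hochberg adjustment. Both tests also called 0 of all 20168 tested probes in every comparison, so these counts are not particular to the Polycomb probes. With p under 0.05 before adjustment for miR-26a, and no limit on size, the unpaired t-test had Ezh2 lower (by 29.2%) and the test of log ratios Suz12 lower (by 13.6%). With p under 0.1 before adjustment for the sponge, the former had 0 probes and the latter Suz12 and Rnf2 higher, by 0.07 and 0.08 on the log2 scale.

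With 1 array left out, a group keeps 1 array and the fit has fewer residual degrees of freedom. In both comparisons of miR-26a cells, calls were then lost over the whole array as well. The Ezh2 and Jarid2 changes from control to miR-26a were smallest in size without miR-26a replicate 1 and largest without miR-26a replicate 2. Sponge against control had 0 calls under every alternative run. Of the single changes, the sponge minus control difference of Ezh2 was -0.00636 with normexp background correction. With 1 array left out, this difference ranged from -0.0176 to 0.0812 for Ezh2, -0.0145 to 0.18 for Eed, -0.10 to 0.12 for Bmi1 probe A_55_P2170335 and -0.33 to 0.18 for Phc1, and the miR-26a minus sponge difference of Rnf2 from -0.00208 to 0.10. No other change of a tested Polycomb probe turned its sign under the alternatives run, and the cause of the lost calls was not tested. Most probes of Cbx7, Cdkn2b and the Hoxa genes were at or near background, and those above it stayed under the limit of 50.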
